A study of Homo sapiens with 6 samples.

Results

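The 35 genes described here belong to the unfolded protein response and to protein folding in the endoplasmic reticulum (ER). They were chosen by name, as stress sensors, chaperones, disulfide enzymes, degradation and translocation genes, out of 63241 genes in the deposited table. Earlier results of these data were known when they were chosen. Polyadenylated RNA was sequenced from macrophages derived from THP-1, an established human monocytic leukaemia cell line, 24 h after transfection. The siDUSP6 cells received an siRNA against DUSP6 (genotype label DUSP6 knockdown) and the siNC cells a negative control siRNA (genotype label WT), with 3 libraries each. DUSP6 encodes a phosphatase of the cytoplasm that acts on ERK1 and ERK2. For siDUSP6 replicates 2 and 3 the treatment label gives siRNAs against DUSP7 and DUSP8, whereas their titles, library names and genotype field name DUSP6. The labels do not say whether each library was a separate culture. The p-values therefore measure the spread among these 6 samples alone, and that spread may be technical.

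Proteins that enter the ER are threaded through the SEC61 channel, folded by chaperones such as BiP (HSPA5), calnexin and calreticulin, and crosslinked by protein disulfide isomerases. When unfolded protein builds up, the membrane sensors IRE1 (ERN1), PERK (EIF2AK3) and ATF6 start the unfolded protein response. IRE1 splices the XBP1 messenger, PERK phosphorylates the translation factor eIF2α, and cleaved ATF6 enters the nucleus, and together they raise the genes for chaperones and for ER-associated degradation (ERAD). Macrophages secrete many proteins and use the same sensors in inflammatory signalling. The values here are messenger levels per gene, and XBP1 splicing, eIF2α phosphorylation and protein amounts were not measured by them.

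The genes whose values carry the result, and the promoter elements best known for this response, are shown by their sequence. The ER stress response element (ERSE) reads CCAAT, then any 9 bases, then CCACG, and is bound by NF-Y and ATF6. The promoter windows are from RefSeq on GRCh38.p14 and run 5′ to 3′ on the gene's strand, from 250 bases before the annotated start to 50 bases after it, with the element in capitals. The HSPA5 window lies at chr9:125241294-125241593, minus strand, and the first of 2 windows of XBP1 at chr22:28800520-28800819, minus strand. The other XBP1 window held no ERSE.
HSPA5: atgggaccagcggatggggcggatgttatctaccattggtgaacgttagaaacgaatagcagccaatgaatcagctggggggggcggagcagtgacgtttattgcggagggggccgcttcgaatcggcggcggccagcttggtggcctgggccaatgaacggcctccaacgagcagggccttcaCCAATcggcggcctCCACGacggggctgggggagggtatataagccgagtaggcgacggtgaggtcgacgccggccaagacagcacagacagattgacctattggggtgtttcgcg
XBP1: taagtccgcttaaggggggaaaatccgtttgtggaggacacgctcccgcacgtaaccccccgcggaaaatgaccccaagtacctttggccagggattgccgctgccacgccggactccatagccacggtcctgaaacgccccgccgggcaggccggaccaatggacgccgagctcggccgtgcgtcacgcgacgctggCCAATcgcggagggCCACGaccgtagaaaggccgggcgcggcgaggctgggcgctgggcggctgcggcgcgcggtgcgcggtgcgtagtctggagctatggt
The window of PPP1R15A, at chr19:48872171-48872470, plus strand, held no ERSE. It held a cyclic AMP response element, TGACG directly followed by TCA, in capitals, for which the windows were searched only after this window had been read.
PPP1R15A: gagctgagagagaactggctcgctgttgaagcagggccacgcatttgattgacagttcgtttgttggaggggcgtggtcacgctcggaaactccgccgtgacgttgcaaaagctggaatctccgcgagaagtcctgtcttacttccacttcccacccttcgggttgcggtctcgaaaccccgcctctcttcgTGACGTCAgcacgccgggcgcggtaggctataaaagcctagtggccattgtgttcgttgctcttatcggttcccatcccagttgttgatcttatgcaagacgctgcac

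All 35 genes passed the filter (a mean of 1 TPM or more), and all lay at 5 TPM or more, with means over the 6 libraries between 6.16 TPM for ERN1 and 1328 TPM for CALR. TPM are shares of each library's transcripts, corrected for transcript length and scaled to a fixed total. Genes of this set were abundant, with a median level of 73.9 TPM against 12.8 TPM over the 14602 genes tested. They varied between libraries with a median coefficient of variation of 2.63% in siDUSP6 and 2.44% in siNC. In siDUSP6 the coefficient of variation ran between 0.464% for CALR and 13.3% for ERO1B, and in siNC between 0.692% for SEL1L and 15.8% for DERL1.

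**Figure D1:**
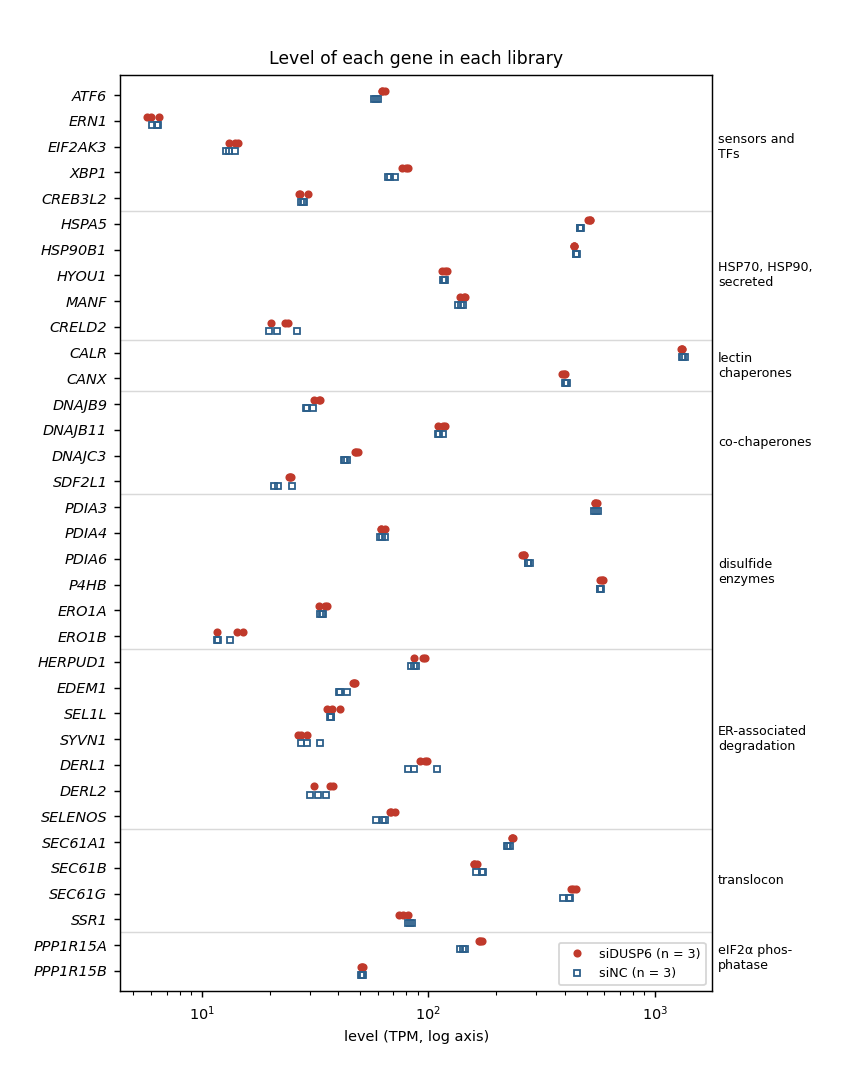
Levels of the 35 genes in TPM on a log axis, grouped by role, with 1 point per library and siDUSP6 drawn above siNC for each gene. The means over the 6 libraries span 6.16 to 1328 TPM, and for most genes the points of both groups lie close together.

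Each library held 14487 to 14680 genes at 1 TPM or more, and its depth is unknown. The targeted gene was lower in every library labelled siDUSP6. DUSP6 had 227, 218 and 222 TPM in siDUSP6, against 359, 368 and 378 TPM in siNC, a log2 fold change of -0.73 ± 0.03 (SE) with an adjusted p of 8.67e-05 (limma, Benjamini-Hochberg over all genes tested). DUSP7 had 39.6, 39.5 and 37.2 TPM in siDUSP6 and 49.5, 50.1 and 47.1 TPM in siNC, a log2 fold change of -0.33 with an adjusted p of 0.0111, and the adjusted p was above 0.05 when siNC replicate 1 (0.0535) or siNC replicate 2 (0.0518) was left out, and without limma's variance trend (0.0598). DUSP8 was low in both groups, at 1.51 to 1.62 TPM in siDUSP6 and 1.40 to 2.11 TPM in siNC, with an adjusted p of 0.719. The macrophage markers were present throughout, with 9 of 9 at 1 TPM or more and a summed level of 1618 to 1630 TPM in siDUSP6 and 1640 to 1658 TPM in siNC. Epithelial markers reached 1 TPM in 0 of 5 genes, with sums of 0.30 to 0.44 TPM in siDUSP6 and 0.20 to 0.33 TPM in siNC. Of 5 T cell markers, TRAC alone reached 1 TPM and 3 were at 0 in every library, and their sum was 53.1 to 58.3 TPM in siDUSP6 and 63.6 to 66.0 TPM in siNC, with the part of this difference in the results below not tested. In such bulk samples, fewer cells of a type and less RNA per cell cannot be told apart.

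After the DUSP6 siRNA a small number of the ER stress genes were modestly higher and none was called lower. The 4 that rose past an adjusted p of 0.05 were PPP1R15A, which encodes the stress-induced subunit (GADD34) of the eIF2α phosphatase, HSPA5, which encodes the main HSP70 chaperone of the ER, XBP1, the transcription factor spliced by IRE1, and DNAJC3, which encodes the co-chaperone P58IPK. Their mean levels differed by between 9.10% and 19.9%. The other 31 genes did not pass the test, 19 with a positive and 12 with a negative log2 fold change. The 4 calls make up 11.4% of the set, where 2.37% of all genes tested were called higher, and 3.28% of the genes that averaged 5 TPM or more. The 0 lower calls stand beside 1.49% of all genes called lower. At an unadjusted p under 0.05, 10 members were higher and 2 lower, or 28.6% and 5.71% of the set, against 8.03% and 11.2% of all genes tested. The set was chosen with earlier results known. These shares, and those of signs and separated groups below, therefore describe it and do not test an excess. Nor were they matched for level or precision. The members had a median level of 73.9 TPM against 12.8 TPM over all genes tested. Their median standard error was 0.035 against 0.084.

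The log2 fold changes were of both signs, and more often positive than those of all genes. Over all 35 the median log2 fold change was 0.03, with 23 positive (65.7%), while over all genes tested the median was -0.03 and 42.1% were positive. With median-of-ratios scaling, 28 members and 48.6% of all genes were positive, CALR, CREB3L2, PDIA3, PDIA4 and PPP1R15B being the 5 that changed sign. The 3 siDUSP6 libraries lay wholly above the 3 siNC libraries for 10 genes (28.6%) and wholly below for 3 (8.57%), where 10.2% and 14.9% of all genes did so. The groups overlapped for 22. The summed level of the 35 genes was 6431, 6421 and 6371 TPM in siDUSP6 and 6260, 6354 and 6308 TPM in siNC. That is 0.641% of all transcripts in siDUSP6 and 0.631% in siNC, a sum 1.59% higher in siDUSP6. The groups were apart by a narrow margin between siDUSP6 replicate 3 and siNC replicate 2. The SD was 32.5 TPM in siDUSP6 and 47.3 TPM in siNC.

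**Figure D2:**
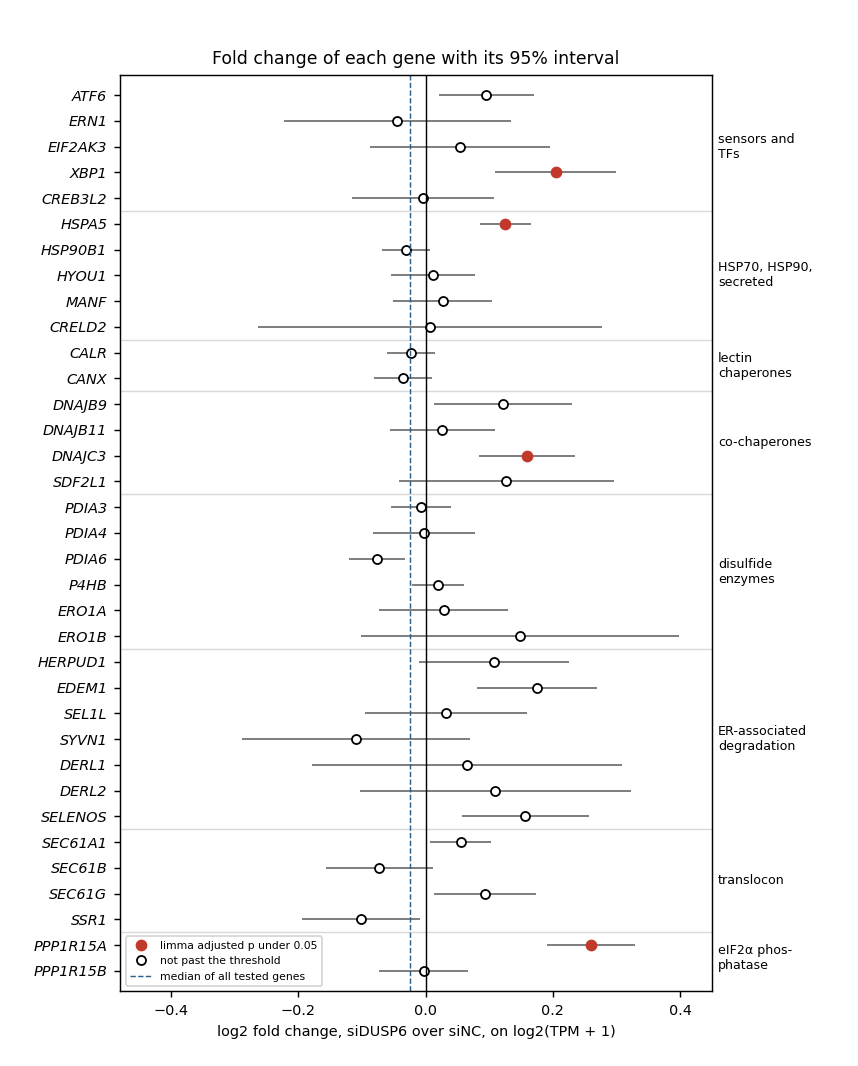
Log2 fold change of each gene, siDUSP6 over siNC, on log2(TPM + 1), with its 95% interval from limma (not adjusted for the number of genes) and filled points where the adjusted p was under 0.05. The 4 filled points lie between 0.13 and 0.26, the open points lie on both sides of 0, and the dashed line marks the median of all genes tested at -0.03.

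Among the sensors and transcription factors, XBP1 rose while the sensors ERN1 and EIF2AK3 showed overlapping groups. XBP1 (chr22:28794555-28800597, minus strand, GRCh38) had 81.3, 76.7 and 79.6 TPM in siDUSP6, against 66.6, 71.6 and 67.7 TPM in siNC. Every siDUSP6 library was above every siNC library, with siNC replicate 2 the nearest to siDUSP6. The means were 79.2 ± 2.36 TPM in siDUSP6 and 68.6 ± 2.66 TPM in siNC (SD, n = 3 each), and the log2 fold change was 0.20 ± 0.04 (SE), with an adjusted p of 0.0426 from limma. This call was lost in all 6 fits on 5 libraries, with adjusted p between 0.0573 without siNC replicate 2 and 0.131 without siDUSP6 replicate 1. The log2 fold change in those fits ran between 0.18 and 0.23. The call was also lost without a filter on low values (0.0897). Gene-level values pool the spliced and unspliced messenger of XBP1.

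ATF6, the sensor cleaved in the Golgi to give a transcription factor, had 62.5, 64.3 and 62.3 TPM in siDUSP6 and 60.2, 58.7 and 57.9 TPM in siNC. Its groups did not overlap, but its log2 fold change of 0.10 missed the threshold (adjusted p 0.164). ERN1 averaged 6.05 TPM in siDUSP6 and 6.27 TPM in siNC, and EIF2AK3 averaged 13.9 TPM in siDUSP6 and 13.3 TPM in siNC. CREB3L2, which encodes a membrane-bound relative of ATF6 that acts in secretory cells, averaged 27.9 TPM in each group, with an interval of -7.70% to 7.67%. The summed level of these 5 genes was 190 ± 1.39 TPM in siDUSP6 and 175 ± 2.38 TPM in siNC.

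Of the HSP70 and HSP90 chaperones and secreted stress proteins, HSPA5 (BiP) rose and the other 4 did not pass the test. HSPA5 (chr9:125234853-125241330, minus strand) had 516, 518 and 506 TPM in siDUSP6, against 469, 474 and 467 TPM in siNC. The groups were separated by a gap wider than the spread within either. The means were 513 ± 6.26 TPM in siDUSP6 and 470 ± 3.54 TPM in siNC (SD, n = 3 each), 9.10% apart, with a log2 fold change of 0.13 ± 0.02 (SE) and an adjusted p of 0.0134 from limma. The call held without siDUSP6 replicate 3 (adjusted p 0.0307) and without siNC replicate 2 (0.0464). It was lost without siDUSP6 replicate 1 (0.0592), siDUSP6 replicate 2 (0.0591), siNC replicate 1 (0.0581) or siNC replicate 3 (0.0559), with the log2 fold change at 0.12 in each. HSP90B1, which encodes the ER HSP90 protein GRP94, had 442, 442 and 438 TPM in siDUSP6 and 451, 454 and 447 TPM in siNC. Its groups did not overlap in the other direction, yet the difference of -2.16% missed the threshold (adjusted p 0.343).

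The other genes of this group lay close to equality. HYOU1, a large HSP70 relative and exchange factor for BiP, averaged 118 TPM in siDUSP6 and 117 TPM in siNC, with a 95% interval of -3.75% to 5.54%. MANF, a secreted ER stress protein, averaged 142 TPM in siDUSP6 and 140 TPM in siNC. CRELD2, another secreted protein induced by ER stress, was the least precise member, at 20.2 to 24.2 TPM in siDUSP6 and 19.8 to 26.3 TPM in siNC.

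The lectin chaperones, which hold glycoproteins by their sugar chains, were not called. CALR (calreticulin), the most abundant member, had 1310, 1321 and 1321 TPM in siDUSP6 and 1332, 1364 and 1320 TPM in siNC. Its groups overlapped, and the interval of its difference, -4.09% to 1.04%, was among the narrowest. CANX (calnexin) averaged 396 ± 5.37 TPM in siDUSP6 and 406 ± 4.99 TPM in siNC, with an interval of -5.45% to 0.73%.

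All 4 J-domain and related co-chaperones of BiP in the set had positive log2 fold changes, and DNAJC3 passed the test. Relatives outside the set, named after their values were seen, had negative log2 fold changes without a call. They were DNAJC1 (-0.08), DNAJC10 (-0.08), DNAJB12 (-0.001), DNAJB14 (-0.38), SIL1 (-0.07) and SDF2 (-0.02). For DNAJC1 and DNAJB14 the groups were apart downwards. DNAJC3 (chr13:95677139-95794989, plus strand) encodes P58IPK, known for holding back eIF2α kinases and for its work as a co-chaperone in the ER. It had 48.9, 47.5 and 48.02 TPM in siDUSP6, against 42.7, 42.8 and 43.7 TPM in siNC. No library of either group came near the other group. The log2 fold change was 0.16 ± 0.03 (SE) and the adjusted p from limma was 0.0472, close to the threshold. As with XBP1, no fit on 5 libraries kept the call, and the adjusted p lay between 0.108 without siNC replicate 3 and 0.141 without siNC replicate 2. It was also lost with a pseudocount of 0.1 (0.0518), with a robust variance trend (0.0514) and without a filter on low values (0.0616).

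DNAJB9 (ERdj4), a target of spliced XBP1 that restrains IRE1, had 32.8, 31.3 and 33.2 TPM in siDUSP6 and 29.2, 29.02 and 31.1 TPM in siNC. These groups were separated by a narrow margin and the adjusted p was 0.212. DNAJB11 (ERdj3) averaged 115 TPM in siDUSP6 and 113 TPM in siNC. SDF2L1, a partner of the ER J-domain proteins, averaged 24.6 TPM in siDUSP6 and 22.6 TPM in siNC, where siNC replicate 2 at 25.1 TPM was above every siDUSP6 library.

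**Figure D3:**
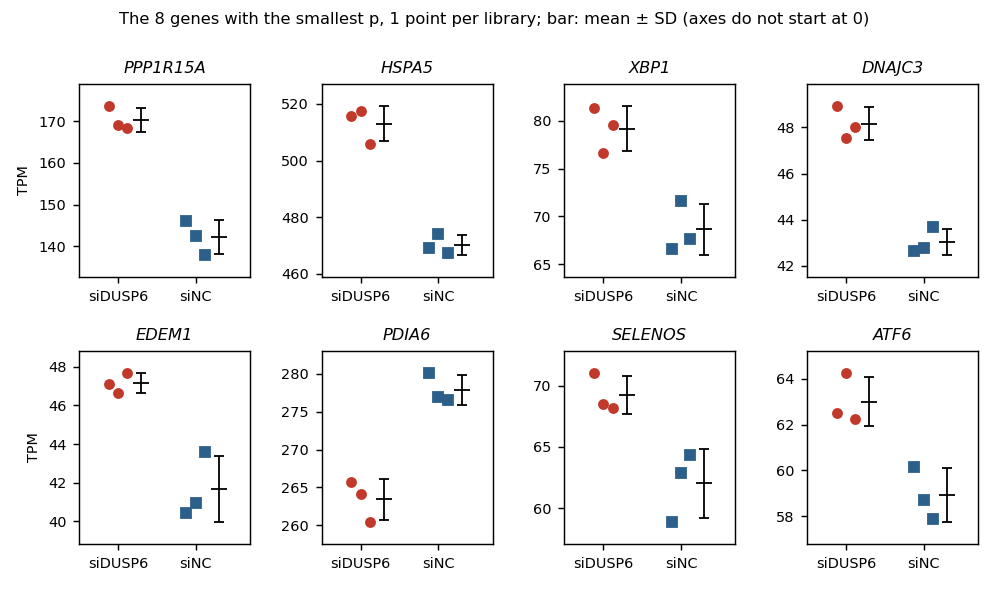
Levels in TPM of PPP1R15A, HSPA5, XBP1 and DNAJC3, which passed the test, and of EDEM1, PDIA6, SELENOS and ATF6, which came nearest to it, with 1 point per library, bars for the mean ± SD and siDUSP6 left of siNC. In every panel the 3 points of one group lie apart from the 3 of the other, on axes that do not start at 0.

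None of the 6 disulfide enzymes passed the test, and the abundant ones had the narrowest intervals. PDIA6, a protein disulfide isomerase that also acts on the IRE1 sensor, came nearest to a lower call among the members. It had 266, 264 and 260 TPM in siDUSP6 and 280, 277 and 277 TPM in siNC. The groups did not overlap, the log2 fold change was -0.08 ± 0.02 (SE) and the adjusted p was 0.0801. P4HB (PDI itself) averaged 584 ± 7.95 TPM in siDUSP6 and 576 ± 5.34 TPM in siNC, with an interval of -1.50% to 4.31%. PDIA3, the isomerase that works with the lectin chaperones, averaged 548 TPM in siDUSP6 and 551 TPM in siNC, and PDIA4 averaged 62.6 TPM in siDUSP6 and 62.8 TPM in siNC. ERO1A and ERO1B encode the oxidases that recharge PDI. ERO1A averaged 34.6 TPM in siDUSP6 and 33.9 TPM in siNC. ERO1B, at 11.7 to 15.3 TPM in siDUSP6 and 11.7 to 13.4 TPM in siNC, was the most variable member in siDUSP6, with an interval of -6.85% to 31.7%.

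Of the 7 ERAD genes, 6 had positive log2 fold changes and none passed the test. EDEM1, which encodes a lectin that steers misfolded glycoproteins to degradation, had 47.1, 46.7 and 47.7 TPM in siDUSP6, against 40.4, 41.0 and 43.6 TPM in siNC. Its groups did not overlap, the log2 fold change was 0.17 ± 0.04 (SE) and the adjusted p was 0.0678. It was called, at an adjusted p of 0.0478, when the test was limited to genes averaging 5 TPM or more. SELENOS, a selenoprotein of the ERAD machinery at the ER membrane, had 71.0, 68.5 and 68.2 TPM in siDUSP6 and 58.9, 62.9 and 64.3 TPM in siNC, again without overlap, and an adjusted p of 0.0989. HERPUD1, a stress-induced scaffold of the ERAD ligase, had 97.2, 95.1 and 86.2 TPM in siDUSP6 and 86.3, 83.9 and 87.9 TPM in siNC. There siDUSP6 replicate 3 lay among the siNC libraries, and the adjusted p was 0.300.

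SYVN1, which encodes the ERAD ubiquitin ligase HRD1, was the ERAD gene with a negative difference, at 27.7 ± 1.31 TPM in siDUSP6 and 30.0 ± 2.94 TPM in siNC. SYVN1 overlaps FAU, a ribosomal protein gene at 659 to 706 TPM, by 694 bases on the same strand, so the value of SYVN1 is uncertain. SEL1L, the adaptor of HRD1, averaged 38.1 TPM in siDUSP6 and 37.2 TPM in siNC. DERL1 and DERL2 encode derlins, membrane proteins through which substrates leave the ER. DERL1 was at 98.97, 96.7 and 92.3 TPM in siDUSP6 and at 81.5, 109 and 86.8 TPM in siNC, so the siNC libraries alone spanned the range of siDUSP6. DERL2 averaged 35.4 TPM in siDUSP6 and 32.7 TPM in siNC.

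The translocon genes went in both directions without a call. SEC61A1, the pore subunit of the channel, had 237, 234 and 235 TPM in siDUSP6 and 230, 224 and 226 TPM in siNC, an adjusted p of 0.208. SEC61G, its small γ subunit, had 428, 435 and 451 TPM in siDUSP6 and 393, 422 and 417 TPM in siNC, with an adjusted p of 0.196. Both were separated upwards. SEC61B, the β subunit, averaged 161 TPM in siDUSP6 and 170 TPM in siNC with overlapping groups. SSR1, a subunit of the TRAP complex beside the channel, had 74.7, 81.3 and 77.2 TPM in siDUSP6 and 83.5, 81.5 and 85.1 TPM in siNC. It was separated downwards by a narrow margin between siDUSP6 replicate 2 and siNC replicate 2, and its adjusted p was 0.225.

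Of the subunits that direct the phosphatase to eIF2α, PPP1R15A rose and PPP1R15B had overlapping groups, with the difference between these genes not tested. PPP1R15A (chr19:48872392-48876057, plus strand) had 174, 169 and 168 TPM in siDUSP6, against 146, 142 and 138 TPM in siNC. Even the lowest siDUSP6 library stood well above the highest siNC library. The means were 170 ± 2.86 TPM in siDUSP6 and 142 ± 4.09 TPM in siNC (SD, n = 3 each), and the log2 fold change was 0.26 ± 0.03 (SE), with an adjusted p of 0.00619 from limma. The call held when each library was left out in turn, with adjusted p between 0.0165 and 0.0334, and in 15 of 16 alternative analyses. It was lost where limma's variance trend was not used (adjusted p 0.0655), as were the calls of HSPA5 (0.161), XBP1 (0.121) and DNAJC3 (0.114). PPP1R15B (CReP), the constitutive counterpart, had 50.5, 51.5 and 51.0 TPM in siDUSP6 and 50.9, 51.7 and 50.7 TPM in siNC, with an interval of -4.98% to 4.77%.

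The standard error of the log2 fold change ran between 0.02 and 0.11 over the members, with a median of 0.035, against a median of 0.084 over all genes tested. For 14 of the 31 genes without a call, the 95% interval lay within 10% of equality in both directions. For the other 17 a larger difference remains within the interval. The smallest two-sided p of an exact permutation test is 0.1 with 3 libraries in each group, and the p-values given here come from limma's model.

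**Figure D4:**
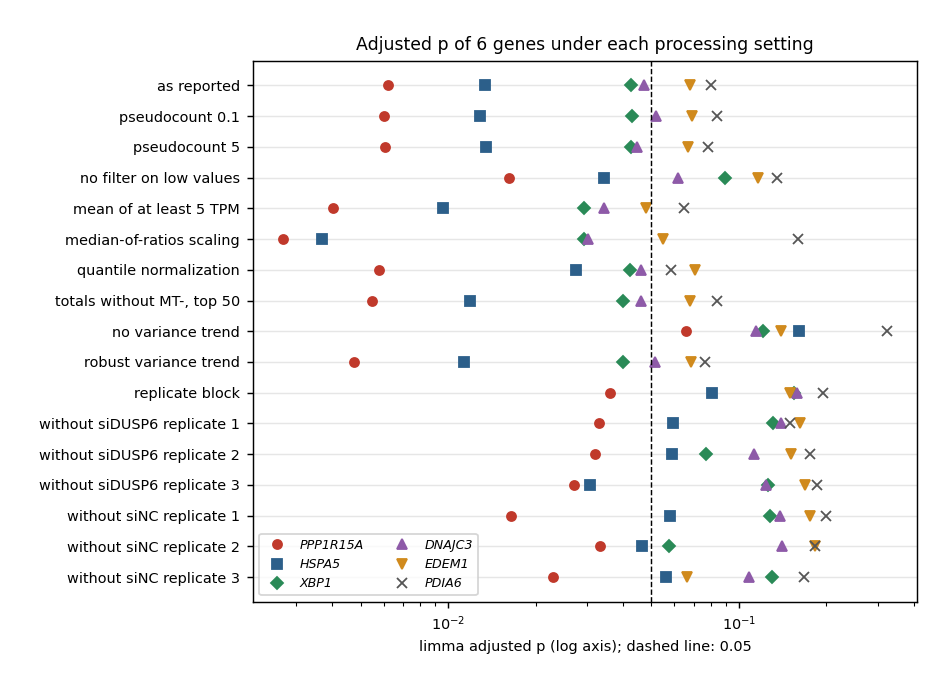
Adjusted p from limma, on a log axis, of PPP1R15A, HSPA5, XBP1, DNAJC3, EDEM1 and PDIA6 in the analysis used here (top line) and in the 16 alternatives, with a dashed line at 0.05. PPP1R15A lies left of the line in 15 of 16 alternatives, HSPA5 in 10, XBP1 in 7, DNAJC3 in 5 and EDEM1 in 1, and under the replicate block XBP1 is hidden behind DNAJC3 and EDEM1.

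Related genes of the same pathways were read beside the members. Of 129 further genes in 7 lists, 122 could be tested, and 4 were called higher and 3 lower. Beside these stand 2.37% of all genes tested called higher and 1.49% called lower. Over the 122 the median log2 fold change was -0.01. The medians of the single lists lay within 0.04 of 0, and with median-of-ratios scaling 4 of those that were negative were positive instead (0.01 to 0.02), the ATF4 arm among them. These lists, like the members, were chosen with earlier results of the data known. In the ATF4 arm of the integrated stress response, 3 of 16 genes were called higher, 0 lower, and the median was -0.01. Of the 16 log2 fold changes, 7 were positive and 9 negative. Without a call, the groups were apart downwards for ASNS (log2 fold change -0.29, limma adjusted p 0.217) and CEBPG (-0.10, 0.305). They were apart upwards for NUPR1 (0.25, 0.219) and EIF2AK2 (0.24, 0.0573), all named after their values were seen. ATF3, a stress-induced repressor of the ATF family, had 445, 435 and 446 TPM in siDUSP6, against 404, 404 and 391 TPM in siNC (log2 fold change 0.14, adjusted p 0.0174). DDIT3, which encodes the pro-apoptotic factor CHOP, had 102, 101 and 103 TPM in siDUSP6 and 93.6, 91.5 and 92.3 TPM in siNC (log2 fold change 0.14, adjusted p 0.0364). CEBPB, a C/EBP factor active in macrophages, had 131, 123 and 127 TPM in siDUSP6 and 112, 116 and 111 TPM in siNC (log2 fold change 0.17, adjusted p 0.0398). In each of the 3 the groups were apart. Leaving out any 1 library ended the calls of DDIT3 (adjusted p 0.0871 to 0.122) and CEBPB (0.0631 to 0.127). That of ATF3 held without siDUSP6 replicate 2 (0.0458) and was lost in the other 5 cases (0.0517 to 0.0722). Without limma's variance trend the calls of ATF3 (0.1415), DDIT3 (0.141) and CEBPB (0.140) were lost, and that of CEBPB also without a filter on low values (0.0828). ATF4 itself, named here after its values were seen, averaged 264 ± 6.87 TPM in siDUSP6 and 268 ± 7.18 TPM in siNC, with an adjusted p of 0.772.

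Among the genes of N-glycosylation at the ER, 1 of 19 was called higher and 0 lower, beside 2.37% and 1.49% of all genes tested. Of the 19 log2 fold changes, 6 were positive and 13 negative, with a median of -0.03. With median-of-ratios scaling 9 were positive and 10 negative. Without a call, the groups were apart downwards for RPN2, DDOST, MOGS and DPAGT1 and upwards for RPN1, all named after their values were seen. The called gene was GANAB, the catalytic subunit of glucosidase II, which trims the sugar chain that calnexin and calreticulin read. GANAB had 142, 138 and 137 TPM in siDUSP6, against 118, 115 and 111 TPM in siNC. The groups were well apart, with a log2 fold change of 0.28 ± 0.03 (SE) and an adjusted p of 0.00745 from limma. It was called without each library in turn (adjusted p 0.0175 to 0.0380), and lost its call where the variance trend was not used (0.0655).

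The 3 lower calls among the related genes were 1 each in different lists, beside 1.49% of all genes tested called lower. Negative log2 fold changes were more frequent than these calls. They were found for 14 of 20 other chaperones (median -0.04), 7 of 13 other disulfide enzymes and 6 of 11 other transcription factors and partners. With median-of-ratios scaling these counts were 13, 6 and 4. Over all genes tested, 42.1% were positive, and 48.6% with that scaling. Of 20 other chaperones, RCN1, a calcium-binding protein of the ER, fell to 76.9, 78.7 and 76.6 TPM in siDUSP6, against 94.2, 88.2 and 90.7 TPM in siNC (log2 fold change -0.23, adjusted p 0.0159). Without 1 library its call held for siNC replicate 2 (0.0341) and was lost for the other 5 (0.0512 to 0.0668). Of 13 other disulfide enzymes, QSOX1, a sulfhydryl oxidase of the secretory pathway, fell to 103, 107 and 101 TPM in siDUSP6, against 116, 117 and 118 TPM in siNC (log2 fold change -0.17, adjusted p 0.0315). Its call held without siDUSP6 replicate 2 (0.0468) and was lost without any other library (0.0874 to 0.108). MBTPS2, the site-2 protease that cleaves ATF6 in the membrane, fell to 10.2, 10.2 and 10.97 TPM in siDUSP6, against 13.8, 12.9 and 13.0 TPM in siNC (log2 fold change -0.31, adjusted p 0.0394). It was the 1 call among 11 other membrane-bound transcription factors and sensor partners, and was lost without any 1 library (0.0776 to 0.126), without a filter on low values (0.0786), with median-of-ratios scaling (0.0515) and with quantile normalization (0.0538). The call of QSOX1 was also lost without a filter (0.0584). Without limma's variance trend the adjusted p was 0.0829 for RCN1, 0.125 for QSOX1 and 0.0668 for MBTPS2.

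The remaining lists held no call. Among 26 other ERAD genes, 0 were called in either direction and the median was 0.00. The smallest p-values were those of UBE2G2, an ERAD ubiquitin-conjugating enzyme, at 48.7 TPM in siDUSP6 and 53.8 TPM in siNC (adjusted p 0.103), and of SELENOK, at 62.7 TPM in siDUSP6 and 59.2 TPM in siNC (adjusted p 0.242). Among 17 other translocon, TRAP and signal peptidase genes, 0 were called and the median was -0.01. SPCS2, a signal peptidase subunit, averaged 168 TPM in siDUSP6 and 150 TPM in siNC (adjusted p 0.1003), and TRAM2 averaged 10.1 TPM in siDUSP6 and 11.5 TPM in siNC (adjusted p 0.135).

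**Figure D5:**
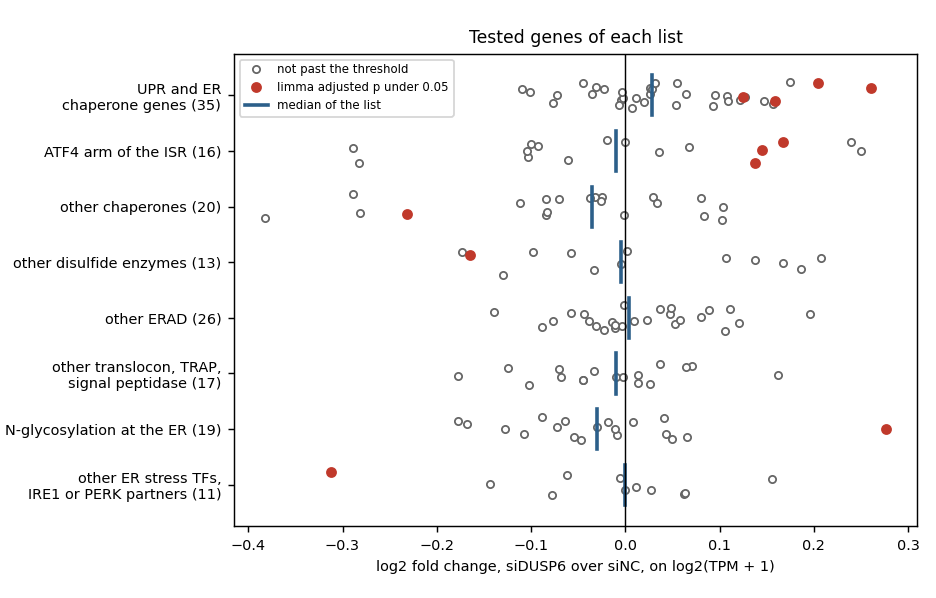
Log2 fold changes of the tested genes of each list, siDUSP6 over siNC, with 1 point per gene, filled where limma's adjusted p was under 0.05, and a bar at each list's median. The medians lie between -0.04 and 0.03, and the filled points to the right of 0 are in the UPR and ER chaperone genes (4), the ATF4 arm (3) and N-glycosylation (1).

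ER stress elements stood in promoters of members with positive and with negative log2 fold changes. The ERSE was found, on either strand and with exact letters, in 27 of 35116 RefSeq windows (0.0769%). Counted by gene, it was in 25 of 27305 genes (0.0916%) and in 8 of the 33 members with a window (24.2%). The sites of those 8 genes are shown 5′ to 3′ on the strand that carries them, with the fixed bases in capitals, to set beside the levels above.
HSPA5: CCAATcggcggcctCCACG
XBP1: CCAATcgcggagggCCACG
HSP90B1: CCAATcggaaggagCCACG
HSP90B1: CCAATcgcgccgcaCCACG
CALR: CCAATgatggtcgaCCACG
CANX: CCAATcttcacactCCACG
PDIA6: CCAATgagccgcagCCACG
CRELD2: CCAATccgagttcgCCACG
ERO1B: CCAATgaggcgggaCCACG
Of these 8 genes, HSPA5 and XBP1 were called higher, where 2.37% of all genes tested were. HSP90B1, with 2 sites, PDIA6, CALR and CANX had negative log2 fold changes (that of CALR was positive with median-of-ratios scaling), and CRELD2 and ERO1B positive ones. On GRCh38.p14 the HSPA5 site lies at chr9:125241391-125241409 (minus strand) and the XBP1 site at chr22:28800603-28800621 (minus strand). Those of HSP90B1 lie at chr12:103930216-103930234 (plus strand) and chr12:103930321-103930339 (minus strand), that of CALR at chr19:12938384-12938402 (minus strand) and that of CANX at chr5:179698778-179698796 (plus strand). The PDIA6 site lies at chr2:10812853-10812871 (minus strand), that of CRELD2 at chr22:49918554-49918572 (minus strand) and that of ERO1B at chr1:236282183-236282201 (plus strand).

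The shorter ERSE-II reads ATTGG, any base, then CCACG, and was found in 19 windows (0.0541%), 3 of them members.
HERPUD1: ATTGGgCCACG
HYOU1: ATTGGaCCACG
SDF2L1: ATTGGtCCACG
These sites lie at chr16:56932025-56932035 (plus strand), chr11:119057274-119057284 (plus strand) and chr22:21642114-21642124 (minus strand). None of these 3 genes was called. HYOU1 held a further site at chr11:119057380-119057390 (plus strand), and a UPR element core, TGACG directly followed by TGG, overlapped the further site and was found in 0.729% of windows. Taking both elements together, 11 members held at least 1, with 2 called higher, 7 positive and 4 negative log2 fold changes and a median of 0.01. The other 22 had 2 called higher, 15 positive and 7 negative, and a median of 0.03. Over all genes tested, 2.37% were called higher, 42.1% were positive and the median was -0.03. Exact letters alone were searched, so near forms of either element were not counted and may stand in the windows of both sets. Outside the members 17 genes held an ERSE and 7 of them were tested. TRIM5, named after its values were seen, was the 1 called higher among these, at 30.3 TPM in siDUSP6 and 23.8 TPM in siNC (adjusted p 0.0106). Of the 7, 0 were called lower, beside 2.37% of all genes tested called higher and 1.49% called lower. The C/EBP-ATF element of ATF4 targets, searched as TTGCA directly followed by TCA, was in 0.866% of windows, with HERPUD1 and PPP1R15B among the members. The cyclic AMP response element was in 1.85% of windows, with PPP1R15A, where it begins 58 bases before the start, and CREB3L2 among them. Such matches describe the letters of these windows and say nothing of whether a factor was bound.

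Some members share sequence with copies or neighbours, which limits what their reads can show. The processed copy PDIA3P1 was listed at 4.19 to 5.29 TPM, beside PDIA3 at 540 to 561 TPM. HSPA5P1 was at 0 to 0.02 TPM and XBP1P1 at 0 to 0.69 TPM. DNAJB11 overlaps AC068631.2, a gene of the same strand at 23.3 to 40.2 TPM. Whether strand was used in counting is not given in the sources used here. Reads from bases that genes on opposite strands share may therefore not have been told apart. Such pairs are DERL1 and TBC1D31 (456 bases) and SEC61A1 and RUVBL1 (6906 bases). The same holds for ERO1B, at 11.7 to 15.3 TPM, which GPR137B, at 31.3 to 34.6 TPM, overlaps by 6311 bases.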

How the data were processed

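The deposited table gives TPM, computed by the authors, for every gene in 6 libraries. Per the submitters' processing notes, the tools were fastp, HISAT2 and StringTie, on GRCh38. No versions and no annotation release are given in the sources used here. TPM keep no sequencing depth, so no counting interval or detection limit is given, and a change in abundant transcripts shifts all others. Of the table, 21 lines with no gene ID were left out.

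Groups came from the sample titles. A pseudocount of 1 was added to each TPM and log2 values were fitted in limma 3.58.1 under R 4.3.3. The model held the group alone and used a variance trend. Genes averaging 1 TPM or more were kept, tests were two-sided, and p-values were adjusted by Benjamini-Hochberg over the 14602 genes tested, with calls at an adjusted p of 0.05. Fold changes on this scale understate those of low genes. The members and lists were chosen with earlier results of these data known. Named were all 35 members, DUSP6, DUSP7 and DUSP8. Each other list gave up to 4 called genes, by size of change, and a list without calls gave the 2 genes of smallest p. ATF4, ASNS, CEBPG, NUPR1, EIF2AK2 and TRIM5 were added later. So were DNAJC1, DNAJC10, DNAJB12, DNAJB14, SIL1, SDF2, RPN1, RPN2, DDOST, MOGS and DPAGT1. Symbols are the deposited ones, and gene coordinates are those of GENCODE release 29.

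The alternatives tried were a pseudocount of 0.1 or 5, a filter at 5 TPM or none, median-of-ratios scaling, quantile normalization, library totals without mitochondrial genes and the 50 most abundant genes, a robust variance trend or none, a block on the replicate number, and each library left out. Promoter windows were searched for exact letters on both strands with Python 3.11.15. PDIA3 and DERL1 had no window. Protein sequences, and the retrieval signals planned to be read from them, were not analysed here.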

Additional observations from a re-analysis of the deposited data

How the results depend on the processing

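Of the 4 higher calls among the 35 genes, those of XBP1 and DNAJC3 lay close to the threshold. Testing without a filter on low values left 2 (HSPA5 and PPP1R15A), and fitting without the variance trend left 0. With 1 library left out the count was 1 to 2, PPP1R15A in each case. Apart from the replicate block, described below, the other alternatives gave 3 to 5. No member was called lower in any of the 16. Over all genes, 346 higher and 218 lower calls became 106 and 18 without the variance trend, and the lower calls became 114 without a filter. With 1 library left out they were 165 to 192 higher and 57 to 79 lower. Median-of-ratios scaling gave 435 higher and 159 lower calls, so that 73.2% of calls were higher, against 61.3% in the analysis used here. The log2 fold changes of PPP1R15A, HSPA5, XBP1, DNAJC3, GANAB and DUSP6 were of 1 sign in all 16 alternatives, and DUSP6 was called in each. The cause of these differences was not tested, and the fits that leave 1 library out also hold fewer libraries.

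With the replicate number as a block, PPP1R15A was the 1 member called, and 101 genes were called higher and 20 lower. Among the genes named by rule from the other lists, GANAB was the 1 called with this block on the replicate numbers. The numbers are not said to pair the libraries, and same-numbered libraries did not deviate together, with correlations of 0.03, -0.04 and 0.05 for numbers 1, 2 and 3.

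The main limits are the unknown depth, 3 libraries a group, possible technical replication, and a treatment field that names other DUSP genes for siDUSP6 replicates 2 and 3.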
